A study of Mus musculus with 6 samples.

Results

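The 9 genes described here encode signals that call neutrophils into injured tissue, hold them in place or support their production. They are the chemokine ligands Cxcl1, Cxcl2, Cxcl3 and Cxcl5, their receptor Cxcr2, the ligand Cxcl12 with its receptor Cxcr4, and the growth factor Csf3 (granulocyte colony-stimulating factor, G-CSF) with its receptor Csf3r. They were chosen by symbol, and the count matrices list all 9 of them among 32285 genes. Single-cell RNA sequencing (scRNA-seq) was performed on the rotator cuff enthesis, the attachment of tendon to bone, of adult mice at 7 days post injury (dpi) and repair. Wild-type controls (3 libraries) were C57BL/6 mice, and the knockouts (3 libraries) were Nlrp3-/- mice, which lack Nlrp3 in all cells and came from another supplier. Both groups underwent transection and reattachment of the supraspinatus tendon, and neither group holds uninjured tissue. The methods state that tissue was pooled, so a library may stand for several mice.

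Nlrp3, the sensor of the inflammasome, had 7865, 16215 and 11109 UMIs (unique molecular identifiers, counted molecules) in the wild-type libraries and 0 in each Nlrp3-/- library. The sample titles name all 3 knockouts Nlrp3, whereas the genotype field of replicates 2 and 3 names Nlrp4 and Nlrp5; the libraries are called Nlrp3-/- here. The wild-type libraries held 2 to 10 UMIs of Xist and 3299 to 4841 of the Y-linked Ddx3y, and the Nlrp3-/- libraries held 51354 to 85840 and 0. Sex, like supplier, cannot be told apart from genotype in any comparison of the groups.

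Neutrophils leave the blood along gradients of CXC chemokines. In mice CXCL1, CXCL2, CXCL3 and CXCL5 bind CXCR2, which draws neutrophils out of the marrow and toward a wound. CXCL12 acts through CXCR4 in the opposite sense in the marrow, where stromal CXCL12 retains neutrophils and their precursors. G-CSF acts through its receptor on the granulocyte lineage, expands it and loosens the CXCL12 to CXCR4 hold. Macrophages, fibroblasts and neutrophils themselves can make the CXCR2 ligands after stimulation by interleukin-1 (IL-1) or microbial products.

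The 6 libraries held 97042713 to 134901999 UMIs over all barcodes, and 70187 cells were analysed, with 9262 to 14902 per library. Neutrophils made up 39.3, 30.8 and 32.0% of the cells in the wild-type libraries and 19.7, 24.9 and 20.2% in the Nlrp3-/- libraries. Macrophages and monocytes made up 31.4, 36.3 and 25.0% of the wild-type and 34.6, 22.1 and 33.9% of the Nlrp3-/- cells. Mesenchymal cells made up 8.87, 15.5 and 15.5% of the wild-type and 14.9, 16.6 and 24.8% of the Nlrp3-/- cells. B cells were 6.35, 5.03 and 12.1% of the wild-type and 2.41, 16.3 and 5.59% of the Nlrp3-/- cells. Granulocyte-monocyte progenitors, cells of blood formation, were 3.93, 2.03 and 5.41% and 3.96, 7.49 and 4.12%. How much of each library, including its neutrophils, came from bone marrow was not tested. The tendon genes Tnmd and Scx were present in the mesenchymal cells of each library (70.0 to 280.0 and 85.3 to 305.1 CPM), and the cartilage gene Col2a1 ranged from 10.9 to 12977 CPM there. CPM means the UMIs of a gene per 1000000 UMIs of the same cells. Nlrp3-/- replicate 1 stood apart. In it 9591 cells (46.9%) lay in clusters of below-median depth that came mostly from that library and were set aside, against at most 1.75% in the other libraries. Between libraries, 0.25 to 0.60% of the cell barcodes of the smaller library were shared.

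All 4 CXCR2 ligand genes lie on mouse chromosome 5 within one cluster (build GRCm38, GENCODE vM21 annotation, plus strand): Cxcl5 at chr5:90759360-90761624, Cxcl3 at chr5:90786103-90789600, Cxcl1 at chr5:90891241-90893115 and Cxcl2 at chr5:90903871-90905938. Cxcl12 lies at chr6:117168535-117181367, Cxcr2 at chr1:74153989-74161246, Csf3 at chr11:98701263-98703629 and Csf3r at chr4:126024550-126044440, on the plus strand, and Cxcr4 lies at chr1:128588199-128592293 on the minus strand. The proximal promoters of Cxcl1, Cxcl2 and Cxcl3 are shown because these neighbouring genes were all high in mature neutrophils and in a macrophage class, as described below. In other cells their levels differed. The sequences are from RefSeq (GRCm38.p6, plus strand) and cover 120 of the 150 bases before the RefSeq start, which lies 4, 28 and 2 bases from the GENCODE start of Cxcl1, Cxcl2 and Cxcl3 and 109 bases downstream of that of Csf3r, and capitals mark matches to the NF-kB-like motif GGNNNTTCC on either strand.
Cxcl1, chr5:90891095-90891214: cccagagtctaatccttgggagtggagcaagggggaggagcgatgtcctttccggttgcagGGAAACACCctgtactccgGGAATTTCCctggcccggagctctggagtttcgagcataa
Cxcl2, chr5:90903749-90903868: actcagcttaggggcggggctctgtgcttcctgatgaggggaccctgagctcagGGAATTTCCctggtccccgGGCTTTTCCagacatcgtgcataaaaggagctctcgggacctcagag
Cxcl3, chr5:90785951-90786070: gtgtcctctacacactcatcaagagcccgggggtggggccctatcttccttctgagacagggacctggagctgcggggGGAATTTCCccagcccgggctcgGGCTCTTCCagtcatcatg
Each of the 3 promoters held the 9 bases GGAATTTCC, which read as a match on both strands, at 70 (Cxcl1), 96 (Cxcl2) and 72 (Cxcl3) bases before the RefSeq start. Each also held 1 further match, at 89, 77 and 49 bases. Position by position, without alignment, 35 to 42 of the 150 bases were the same between any pair of these promoters. Over all 32851 RefSeq promoter windows of 150 bases, 3377 (10.28%) held the motif. Csf3r had 1 match, 129 bases before its RefSeq start, and Cxcr2, Cxcl12 and Cxcr4 had none in this window. For Cxcl5 and Csf3 no promoter entry was available, so they were not searched. A match is a description of letters and not of factor binding.

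The sources of the CXCR2 ligands differed by gene in wild-type tissue. Macrophages and monocytes held 45.9 ± 12.4% (SD, n = 3 libraries here and below) of all Cxcl1 UMIs, mesenchymal cells 31.0 ± 9.67% and neutrophils 10.95 ± 4.95%. Cxcl2 came from neutrophils (52.5 ± 9.30%) and from macrophages and monocytes (38.4 ± 6.37%). For Cxcl3 the shares were 57.1 ± 9.54% in macrophages and monocytes, 27.5 ± 8.47% in neutrophils and 12.2 ± 3.52% in mesenchymal cells. Cxcl5 was a stromal transcript, with 89.5 ± 3.36% of its UMIs in mesenchymal cells.

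**Figure D1:**
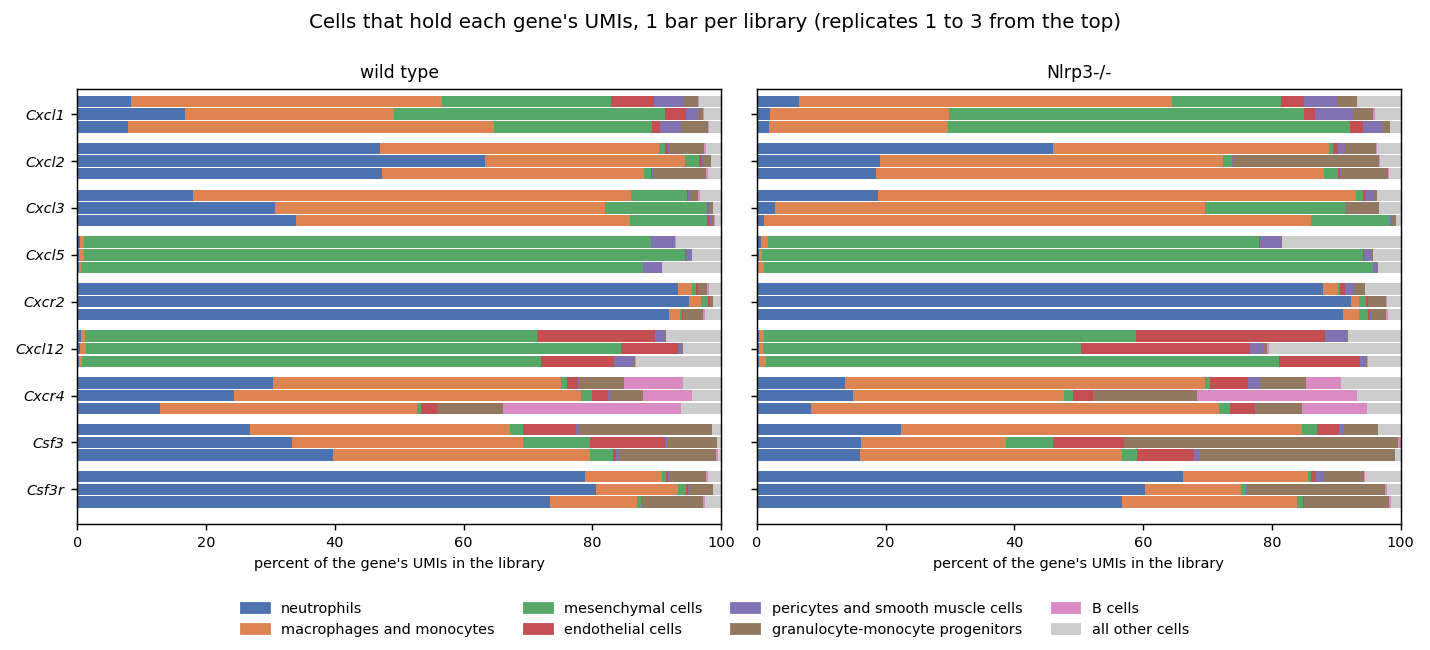
Percent of each gene's UMIs held by each cell type, 1 bar per library with replicates 1 to 3 from the top (wild type left, Nlrp3-/- right). In wild type mesenchymal cells fill most of the Cxcl5 and Cxcl12 bars, and neutrophils fill most of the Cxcr2 and Csf3r bars.

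Per cell type, Cxcl1 in macrophages and monocytes was at 294, 344 and 605 CPM in wild-type replicates 1 to 3. In pericytes and smooth muscle cells it was at 412, 307 and 626 CPM and in mesenchymal cells at 192, 347 and 167 CPM. Neutrophils had 71.0, 459 and 127.7 CPM and endothelial cells 194, 138 and 85.5 CPM. The first 5 types in this order overlapped with their neighbours, and endothelial cells lay above the granulocyte-monocyte progenitors (49.2 ± 24.8 CPM) without overlap. Neither neutrophils (log2 fold change -0.17, SE 0.47, adjusted p 0.766) nor mesenchymal cells (-0.93, SE 0.46, adjusted p 0.0730) differed from macrophages and monocytes at an adjusted p of 0.05. Without wild-type replicate 2, in which the neutrophil level was highest, both were lower, by edgeR with log2 fold changes of -1.28 (adjusted p 0.0116) and -1.40 (adjusted p 0.00596).

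Cxcl2 had a steeper order. Neutrophils held 4379, 16528 and 7436 CPM in wild-type replicates 1 to 3 and macrophages and monocytes 2857, 3132 and 4231 CPM, so the lowest neutrophil value lay just above the highest macrophage value. The 3rd in order were mast cells and basophils at 1329.5 ± 577 CPM, again without overlap. Mesenchymal cells were at 104 ± 51.4 CPM, close to the B cells (101.3 ± 12.9 CPM), which are not known as a source and stand for background here. Free RNA in barcodes of at most 100 UMIs had 1787, 2951 and 2499 CPM of Cxcl2 in wild type, which is the makeup of the free RNA and not the level that it adds to a cell. Cxcl3 was at 27.7, 255 and 366 CPM in neutrophils and 74.6, 164 and 370.0 CPM in macrophages and monocytes, and in both types replicate 1 had the lowest and replicate 3 the highest value. Cxcl5 was at 552, 1094 and 261 CPM in mesenchymal cells and 280.0, 214 and 244 CPM in pericytes and smooth muscle cells, and at 8.23 ± 3.72 CPM or less in each of the other 8 types.

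**Figure D2:**
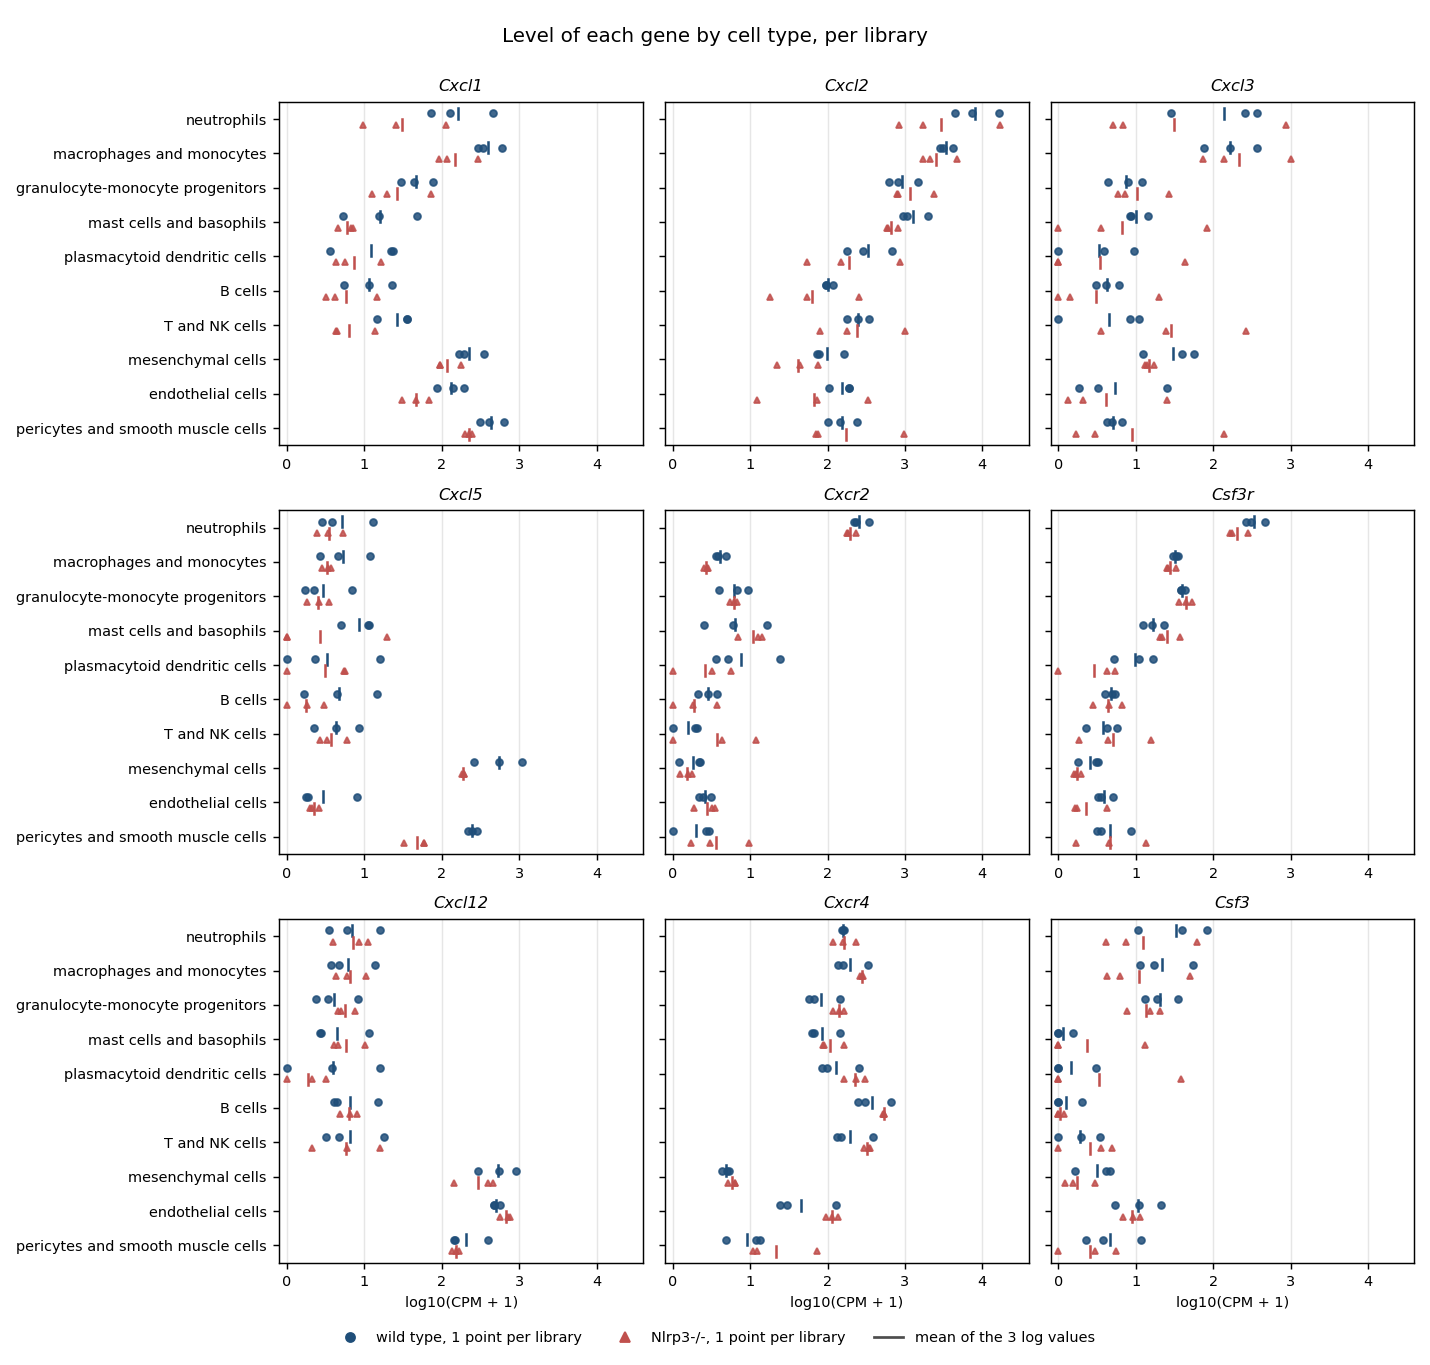
Level of each gene as log10(CPM + 1) in the 10 cell types that reached 20 cells in every library, with circles for wild-type and triangles for Nlrp3-/- libraries and a line at the mean of the 3 log values. Cxcl5 is high in mesenchymal cells and pericytes, Cxcl12 in these and in endothelial cells, and Cxcr2 is high in neutrophils alone.

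The wild-type differences were tested with a fit over the 10 cell types (edgeR, with the library as a term). Of all genes tested, 68.0% differed between neutrophils and macrophages and monocytes, 72.2% between mesenchymal cells and macrophages and monocytes, and 53.2% between mesenchymal and endothelial cells. Among the 9 members 7, 8 and 4 passed in these comparisons, against which those high backgrounds must be read. DESeq2 called 5, 8 and 4, and its shares over all genes are not given. Cxcl2 was higher in neutrophils than in macrophages and monocytes by 2.25 on the log2 scale (SE 0.35, adjusted p 2.49e-06), and Cxcl3 missed the threshold (0.78, SE 0.36, adjusted p 0.0540), at plain CPM means of 216 ± 172 and 203 ± 152. It passed with RLE size factors (0.83, adjusted p 0.0456), without a filter on low counts (0.64, adjusted p 3.01e-05) and without wild-type replicate 1, at 1.17 (adjusted p 0.0312). After subtraction of 10% of each sum by the ambient profile Cxcl2 stood at 2.25 (adjusted p 0.0525) and no longer passed. In mesenchymal cells Cxcl5 was 6.92 higher on the log2 scale than in macrophages and monocytes, whereas Cxcl2 (-5.21) and Cxcl3 (-2.59) were lower, all with adjusted p under the threshold. Cxcl5 (0.97, adjusted p 0.0406) and Cxcl12 (1.15, adjusted p 0.0385) also passed between neutrophils and macrophages and monocytes, although their mean levels were 5.33 to 7.35 CPM, beside free RNA of 108, 347 and 73.1 CPM for Cxcl5 and 123, 355 and 123 CPM for Cxcl12. Their plain means were 5.56 and 7.35 CPM in neutrophils and 5.33 and 6.39 CPM in macrophages and monocytes. In this comparison the scaling in the fit raised neutrophils by 0.96 on the log2 scale over plain CPM.

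Within these types the ligands were higher in some subsets than in others. Cells were clustered without the 9 genes, and the limits for naming were chosen with the clusters in view. Mature neutrophils held Cxcl2 at 19332, 40229 and 48785 CPM in wild type, which is 1.93, 4.02 and 4.88% of all their UMIs. Cxcl1 was at 292, 1132 and 830.4 CPM and Cxcl3 at 109, 638 and 2517 CPM in the same cells. After each cell was thinned to 1000 UMIs, 90.9, 94.8 and 94.5% of the wild-type mature neutrophils had a Cxcl2 UMI, against 6.57, 10.3 and 6.62% of the B cells. Without thinning these shares were 92.9, 96.9 and 94.1% and 14.3, 19.2 and 19.2%. Thinning left out 2276 of 6501 wild-type mature neutrophils that had fewer UMIs. Among macrophages, the class named Arg1 Spp1 macrophages had the higher values, with Cxcl1 at 545, 854 and 1324 CPM, Cxcl2 at 4434, 6873 and 6889 CPM and Cxcl3 at 295, 616 and 1333 CPM. The class includes a small cluster led by Saa3 and Nos2, described below, whose part in these values was not tested. C1q macrophages, a class of resident-type cells, had Cxcl1 at 299, 241 and 332 CPM, Cxcl2 at 2612, 2165 and 2274 CPM and Cxcl3 at 12.3, 8.38 and 4.05 CPM.

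A pair of small clusters held the highest levels. One macrophage cluster, part of the Arg1 Spp1 class and led by Saa3, Nos2, Ptges and Inhba, comprised 16, 155 and 108 wild-type and 409, 4 and 28 Nlrp3-/- cells. Its wild-type values were 2618, 2938 and 4808 CPM for Cxcl1, 12836, 21900.2 and 25902 CPM for Cxcl2 and 2421, 3620.1 and 7183 CPM for Cxcl3. One mature neutrophil cluster (22, 197 and 507 wild-type and 610, 10 and 17 Nlrp3-/- cells) had Cxcl2 at 57441, 86702 and 71317 CPM in wild type and 59921, 74905 and 52997 CPM in Nlrp3-/-. The numbers of cells in these clusters varied far more between libraries than the levels within them, and both clusters were largest in Nlrp3-/- replicate 1. In this neutrophil cluster Cxcr2 was low, at 144, 138 and 106 CPM in wild type, compared with 830.2, 791 and 841 CPM in the largest mature cluster. These levels describe clusters and carry no test.

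**Figure D3:**
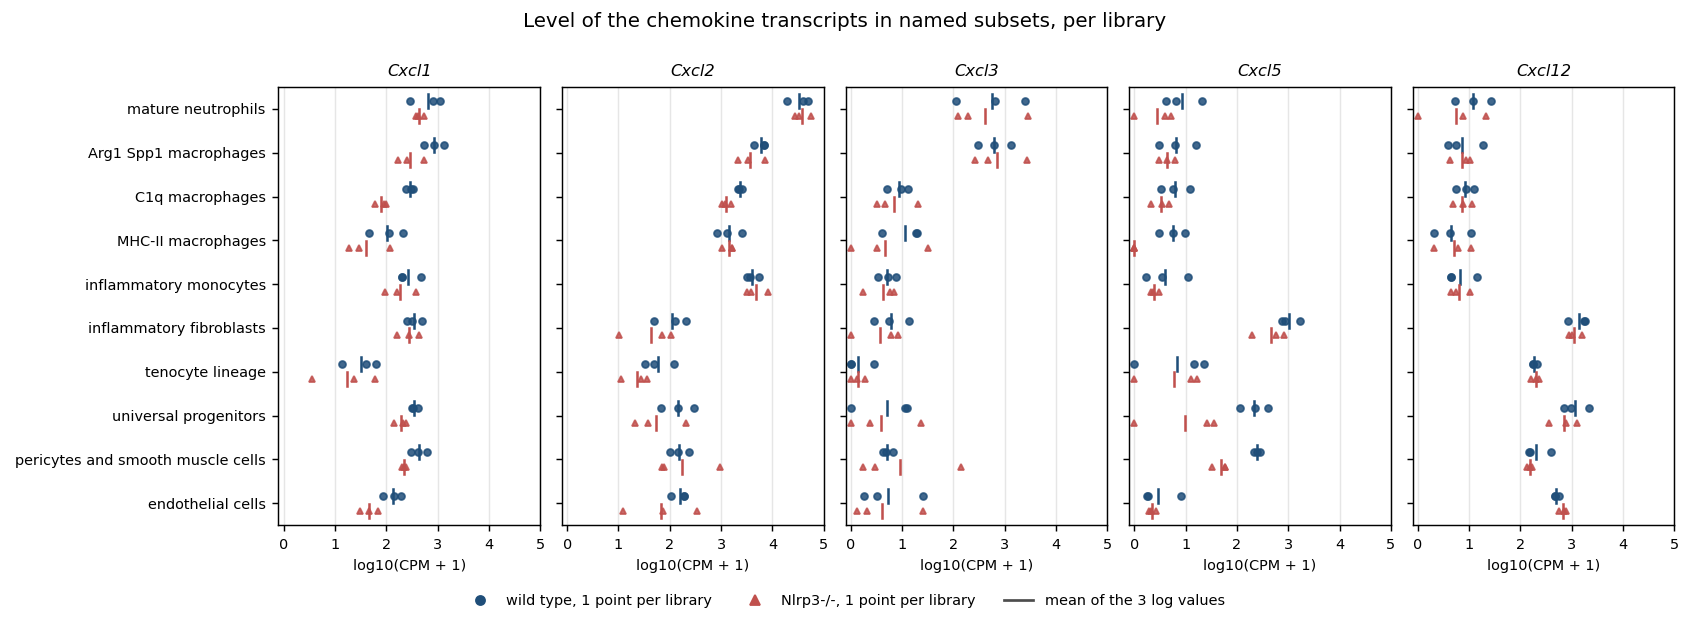
Level of the 5 chemokine transcripts as log10(CPM + 1) in named subsets, with circles for wild-type and triangles for Nlrp3-/- libraries and a line at the mean of the 3 log values. In wild type Cxcl2 peaks in mature neutrophils and Cxcl5 in inflammatory fibroblasts, and Cxcl1 in C1q macrophages lies lower in the 3 Nlrp3-/- libraries (59.8 to 96.0 CPM) than in the 3 wild-type libraries (241 to 332 CPM).

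Among named mesenchymal subsets, inflammatory fibroblasts had the highest wild-type mean of Cxcl5, and dividing cells the highest Nlrp3-/- mean (558 ± 184 against 527 ± 309 CPM). The values of the inflammatory fibroblasts were 864, 1719 and 747 CPM in the wild-type libraries and 809.6, 197 and 576 CPM in the Nlrp3-/- libraries, from 246, 718 and 118 wild-type and 39, 17 and 407 Nlrp3-/- cells. The subset joins 2 clusters that the genotypes filled unequally, so its values compare different mixtures of cells. One had 194, 650 and 11 wild-type and 20, 0 and 29 Nlrp3-/- cells, and the other 52, 68 and 107 and 19, 17 and 378. Universal progenitors (Pi16 and Dpp4 fibroblasts) had 112, 219.9 and 406 CPM in wild type and 0, 34.6 and 25.0 CPM in Nlrp3-/-, where replicate 1 held 18 of these cells. Dividing mesenchymal cells had 612, 1195 and 221 CPM in the wild-type libraries and 535, 752 and 387 CPM in the Nlrp3-/- libraries. The 1st and 3rd of these subsets overlapped between genotypes, and the progenitors did not. The share of all genes separated in the progenitors was not counted, and Nlrp3-/- replicate 1 lay under the limit of 20 cells for a test. In all mesenchymal cells 6.12% of genes were lower in Nlrp3-/- without overlap. In wild type the first of the 2 inflammatory fibroblast clusters held both Cxcl5 (999.9, 1803 and 1601 CPM) and Cxcl12 (2029.6, 1866 and 2115 CPM). The other had Cxcl5 at 449, 822 and 671 CPM in wild type and 643, 197 and 572 CPM in Nlrp3-/-, with overlap.

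Cxcl12, the retention ligand, came from stroma and vessels. In wild type mesenchymal cells held 74.96 ± 7.17% of its UMIs, endothelial cells 12.8 ± 4.95%, muscle cells 4.70 ± 3.76% and pericytes and smooth muscle cells 1.81 ± 1.32%. Mesenchymal cells had 544, 909 and 295 CPM, endothelial cells 561, 473 and 464 CPM and pericytes and smooth muscle cells 144, 149 and 389 CPM. The mesenchymal and endothelial levels overlapped, and their difference did not pass by edgeR (0.22, SE 0.39, adjusted p 0.667, range of 2 SE -0.57 to 1.01 on the log2 scale). Inflammatory fibroblasts were at 1716, 1777 and 837 CPM, universal progenitors at 703, 976 and 2154 CPM and tenocyte-lineage cells at 171, 205 and 175 CPM. A further 46 cells with at least 3 UMIs of Adipoq, a gene of adipocytes and of marrow stromal cells, were chosen after their values had been seen. Of them, 33 lay in the cluster named muscle cells, and none held a UMI of the muscle gene Myog. They held 2.95, 2.07 and 7.34% of the Cxcl12 UMIs of the wild-type libraries and 0, 18.2 and 3.57% of those of the Nlrp3-/- libraries. Where present their level was 9853 to 18348 CPM, and they also held 158 UMIs of Lepr and 223 of Kitl, genes of the marrow stroma that supports blood formation.

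Csf3 was rare. Over the wild-type cells macrophages and monocytes held 38.7 ± 2.40% of its UMIs, neutrophils 33.3 ± 6.43% and granulocyte-monocyte progenitors 14.5 ± 6.62%. Its level was 9.67, 38.5 and 81.3 CPM in wild-type neutrophils, 10.3, 16.0 and 54.1 CPM in macrophages and monocytes and 12.1, 17.7 and 34.6 CPM in the progenitors. Replicate 3 had the highest wild-type value in each of these types. In the Saa3 Nos2 macrophage cluster Csf3 was at 263, 228 and 772 CPM in wild type. By edgeR neutrophils were higher than macrophages and monocytes (1.57, SE 0.34, adjusted p 0.000178), a call lost after ambient subtraction at 1.51 (adjusted p 0.0725). That fit raised neutrophils by 0.96 on the log2 scale over plain CPM, and in replicate 1 their plain value was the lower one. Against mesenchymal cells Csf3 was higher in macrophages and monocytes (log2 fold change of mesenchymal cells over them -3.31, SE 0.39, adjusted p 2.19e-08) and in endothelial cells (-2.34, SE 0.44, adjusted p 5.06e-05).

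Cxcr2 was a neutrophil transcript, with 93.4 ± 1.58% of its wild-type UMIs in neutrophils, at 231, 341 and 218 CPM. No other type had a mean above 9.98 CPM, while free RNA had 36.9, 31.2 and 23.8 CPM. Within neutrophils Cxcr2 increased with maturation stage, with 21.6, 28.2 and 23.6 CPM in dividing precursors, 90.3, 163 and 73.4 CPM in granule-rich immature cells and 692, 707 and 418 CPM in mature cells. The 3 named stages did not overlap as whole classes, and unnamed neutrophils are left out of them. The small mature cluster described above had Cxcr2 within the range of the granule-rich cells. At 1000 UMIs per cell 45.7, 46.2 and 28.9% of wild-type mature neutrophils had a Cxcr2 UMI (52.6, 51.1 and 36.6% without thinning), and at most 0.3% of B cells did.

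Csf3r had the same main receiver. Neutrophils held 77.6 ± 3.69% of its wild-type UMIs and macrophages and monocytes 12.8 ± 0.706%. It was at 1144, 1052 and 837 CPM in mature neutrophils and 37.1, 42.9 and 37.7 CPM in granulocyte-monocyte progenitors. Inflammatory monocytes had 71.2, 71.5 and 76.1 CPM. The order neutrophils, progenitors, macrophages and monocytes held without overlap in wild type. Compared with macrophages and monocytes, neutrophils were higher in Cxcr2 by 7.34 (adjusted p 1.83e-16) and in Csf3r by 4.38 (adjusted p 1.91e-16) on the log2 scale.

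Cxcr4 was broad among leukocytes. Wild-type B cells had 248, 307 and 668 CPM, T and NK cells 149, 130.1 and 389.5 CPM and macrophages and monocytes 158, 134 and 334 CPM. Neutrophils had 152, 157 and 163 CPM and mesenchymal cells 4.41, 3.35 and 4.04 CPM. Wild-type replicate 3 was the highest in B cells, T and NK cells, macrophages and monocytes and endothelial cells (28.9, 23.7 and 129 CPM), and near the other libraries in neutrophils. By share, macrophages and monocytes held 46.2 ± 7.19% of the UMIs, neutrophils 22.5 ± 8.93% and B cells 14.8 ± 11.1%. The fit called Cxcr4 higher in neutrophils than in macrophages and monocytes (0.75, SE 0.26, adjusted p 0.0137), although its plain CPM was lower in 2 of the 3 libraries. The fit scales libraries by the trimmed mean of M values (TMM), and plain CPM does not. The call was lost without wild-type replicate 1, at 0.59 (adjusted p 0.184), without replicate 2, at 0.44 (adjusted p 0.222), and after ambient subtraction, at 0.70 (adjusted p 0.0767). Mature neutrophils were at 413, 305 and 461 CPM. In thinned wild-type neutrophils 6.53, 6.47 and 6.08% of cells had a UMI of both Cxcr2 and Cxcr4, compared with 4.97, 5.45 and 4.32% for the product of the separate shares. In Nlrp3-/- neutrophils these were 5.99, 5.08 and 3.71% against 4.71, 3.51 and 2.82%. In mature neutrophils alone the wild-type libraries had 13.1, 10.2 and 9.97% against 12.7, 10.4 and 8.27%, and the Nlrp3-/- libraries 8.65, 29.2 and 22.4% against 7.26, 26.6 and 22.5%, so the share with both lay below the product in wild-type replicate 2 and Nlrp3-/- replicate 3.

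Genes whose wild-type pattern was most like each member were named by Pearson's r over the mean log2(CPM + 1) of 20 cell types and subsets, which share libraries, so no p is given. For Cxcl2 they were Clec4d (0.967), Nlrp3 (0.962) and Ccl6 (0.951). For Cxcr2 they were Retnlg (0.972), Ifit1bl2 (0.955) and Nlrp12 (0.949), and for Csf3r Hcar2 (0.954), Arg2 (0.948) and Slc7a11 (0.946). Cxcl1 was closest to Ifi204 (0.903), Lhfpl2 (0.860) and Cdc42ep2 (0.845), and Cxcl3 to Csta2 (0.875), Stfa3 (0.862) and Il1a (0.805), a ligand of the IL-1 receptor. Cxcl5 was closest to Vgll3 (0.976), Dio3 (0.970) and Slit3 (0.955). Cxcl12 was closest to Lamb1 (0.990), Fbln5 (0.98) and Fbln2 (0.98), which encode matrix proteins. For Cxcr4 the genes were Inpp5d (0.985), Hcls1 (0.960) and Pik3cg (0.943), and for Csf3 Tarm1 (0.883), Fbxl5 (0.861) and Msrb1 (0.830). Among the members themselves r was 0.823 for Cxcl5 and Cxcl12, 0.846 for Cxcr2 and Csf3r and 0.871 for Cxcl2 and Csf3r. The neighbouring ligand genes were less alike, at 0.336 for Cxcl1 and Cxcl2, 0.5 for Cxcl1 and Cxcl3 and 0.691 for Cxcl2 and Cxcl3.

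Other genes of the same pathways were described from 6 lists with 63 genes. Of all genes, 34.4% were higher and 33.6% lower in wild-type neutrophils than in macrophages and monocytes. Of 10 other receptors and enzymes for neutrophil attractants, 10 were higher in wild-type neutrophils than in macrophages and monocytes, with a list median of 3.29 on the log2 scale against 0.04 over all genes. TMM scaling raised neutrophils by 0.96 on the log2 scale over plain CPM in this comparison. Of the 44 list genes called higher in neutrophils, 4 did not have the higher plain CPM mean there, namely Csf2rb, Icam1, Itch and Tlr2. Alox5ap, needed for leukotriene synthesis, was at 1115 ± 110.2 CPM in neutrophils, the complement receptor C5ar1 at 276 ± 40.7 CPM, and the chemokine receptor Ccr1 at 209.6 ± 94.7 CPM. The receptor Tlr2 was at 218 ± 42.7 CPM in macrophages and monocytes and at 216 CPM in neutrophils. Of 12 growth factor genes 9 were higher in neutrophils, with Cebpb, a transcription factor of stress granulopoiesis, at 1601 ± 669.7 CPM and Cebpe at 324 ± 74.4 CPM. Stat3, which relays the G-CSF signal, was highest in plasmacytoid dendritic cells (266 ± 24.1 CPM), and Socs3, its feedback inhibitor, in macrophages and monocytes (185 ± 49.3 CPM). Of 10 inducers and brakes of chemokine transcripts 8 were higher in neutrophils, among them Il1b at 2616 ± 1261 CPM. The inhibitor of NF-kB Nfkbia was at 1805 ± 1099.9 CPM, the mRNA-decay factor Zfp36 at 698 ± 169 CPM and, highest in T and NK cells, Tnfaip3 at 424 ± 73.7 CPM.

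The adhesion list had 9 genes higher and 1 lower of 12 in neutrophils against macrophages and monocytes. Cd44 was at 509 ± 97.9 CPM and the integrin Itgam at 457 ± 112 CPM in neutrophils, while Pecam1 (1119 ± 181 CPM) led in endothelial cells and Selplg (479.6 ± 6.75 CPM) in plasmacytoid dendritic cells. Of 11 genes that trim CXCL12 or handle CXCR4, 8 were higher and 3 lower. Elane (6894 ± 1442 CPM) and Ctsg (3014 ± 408 CPM), neutrophil serine proteases that can cleave CXCL12, were highest in granulocyte-monocyte progenitors, the gelatinase Mmp9 in neutrophils (1279 ± 239 CPM) and Mmp2 in mesenchymal cells (836 ± 188 CPM). Of 8 genes of other chemokines, chemokine receptors and scavengers, 5 could be tested and 0 were higher and 3 lower in neutrophils. Mast cells and basophils had 2083 ± 1672 CPM of Pf4, next to which macrophages and monocytes had 1961 CPM. Ackr1, a chemokine-transporting receptor of venules, was at 94.3 ± 9.46 CPM in endothelial cells, the CXCL12 scavenger Ackr3 at 76.6 ± 55.6 CPM and Cxcl14 at 89.9 ± 33.7 CPM in mesenchymal cells. In Nlrp3-/- against wild-type libraries, 0 of 275 tests of these list genes over all cells and the 4 main types passed an edgeR adjusted p of 0.05, 37 had an unadjusted p under 0.05, and DESeq2 called 7, namely Selp and Tlr2 (lower) in neutrophils, Nfkbia and Csf2rb (lower) in macrophages and monocytes, and Mmp2, Elane and Ctsg (higher) in endothelial cells. The counts over all genes in the same fits are given in the next paragraph. The mesenchymal markers, in whose cells Mmp2 was highest, summed to 208, 366 and 388 CPM in wild-type and 1745, 579 and 889.6 CPM in Nlrp3-/- endothelial cells, and their part in the Mmp2 call was not tested. Elane and Ctsg had wild-type means of 6.60 and 2.67 CPM in endothelial cells. The 10 neutrophil markers summed there to 2656, 950 and 875 CPM in wild type and 3959, 1605 and 1165 CPM in Nlrp3-/-, with overlap. The part of granulocyte-lineage RNA in the Elane and Ctsg calls was not tested.

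The second question was whether these signals changed in the Nlrp3-/- enthesis. In all cells and in the 4 main types, 0 of 43 member tests passed an edgeR adjusted p of 0.05, 16 had an unadjusted p under 0.05 and DESeq2 called 7. Of all genes tested, edgeR called 0.15% in all cells, 0.386% in neutrophils, 0.517% in macrophages and monocytes, 0.109% in mesenchymal cells and 0.394% in endothelial cells. In the same order 1956 of 17294, 1553 of 10894, 2686 of 12971, 1812 of 14624 and 2296 of 11432 genes had an unadjusted p under 0.05. DESeq2 called 348, 229, 671, 253 and 342 genes in these fits. The median log2 fold change of the members was -0.79 in all cells, -0.70 in neutrophils, -0.41 in macrophages and monocytes, -1.23 in mesenchymal cells and -0.35 in endothelial cells, and that of all genes lay between 0.01 and 0.04. With each library left out in turn, the most calls came without wild-type replicate 3. edgeR then called 8 members: Cxcl5, Cxcr2, Cxcr4 and Csf3r in macrophages and monocytes, Cxcl5 in mesenchymal cells, and Cxcl1, Cxcr4 and Csf3 in endothelial cells. Those fits called 21.4%, 3.63% and 19.0% of all genes in these 3 types. That library had the highest wild-type Cxcr4 in both types with a Cxcr4 call, so these calls depend on its removal. Wild-type means of Cxcl5 and Cxcr2 in macrophages and monocytes were 5.33 and 3.17 CPM, below free RNA. In endothelial cells the 10 macrophage markers summed to 103, 131 and 117 CPM in the wild-type and 314, 258 and 247 CPM in the Nlrp3-/- libraries, without overlap, and their part in the Cxcr4 call was not tested.

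**Figure D4:**
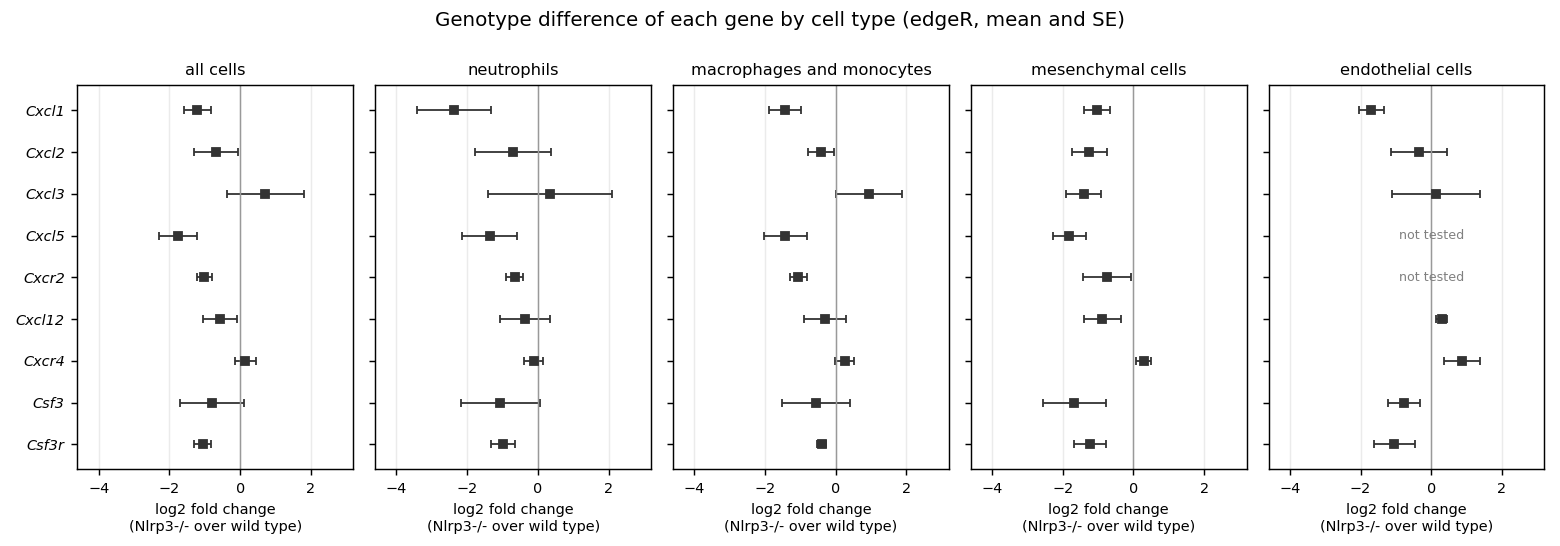
Log2 fold change of each gene in Nlrp3-/- over wild-type libraries (edgeR, n = 3 per group), in all cells and the 4 main types, with bars of 1 SE. Points left of 0 are lower in Nlrp3-/-. None passed an adjusted p of 0.05, and Cxcl3 has the widest bars in all cells, neutrophils and endothelial cells.

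Cxcl1 had lower means in each main type, without passing in any. In macrophages and monocytes it was at 294, 344 and 605 CPM in the wild-type libraries and 293, 90.7 and 117 CPM in the Nlrp3-/- libraries, and the 3 libraries of each genotype did not overlap although wild-type replicate 1 and Nlrp3-/- replicate 1 were nearly equal. Its log2 fold change there was -1.44 (SE 0.45, adjusted p 0.162). Of the genes with at least 10 CPM in either group, 5.64% were likewise lower in Nlrp3-/- without overlap in macrophages and monocytes. In endothelial cells Cxcl1 was at 194, 138 and 85.5 CPM in the wild-type libraries and 67.7, 29.5 and 45.9 CPM in the Nlrp3-/- libraries, again without overlap (log2 fold change -1.69, SE 0.35, adjusted p 0.0820), where 5.44% of genes were lower without overlap. DESeq2 called this difference (adjusted p 0.0309). In mesenchymal cells Cxcl1 was at 192, 347 and 167 CPM in the wild-type libraries and 92.5, 92.3 and 177 CPM in the Nlrp3-/- libraries and overlapped (log2 fold change -1.03, SE 0.37, adjusted p 0.379). In neutrophils it was at 71.0, 459 and 127.7 CPM in the wild-type libraries and 113, 8.72 and 24.7 CPM in the Nlrp3-/- libraries and overlapped widely (log2 fold change -2.37, SE 1.04, adjusted p 0.357). Free RNA moved with the cells, with 166, 368 and 258 CPM of Cxcl1 in the wild-type and 152, 49.5 and 105 CPM in the Nlrp3-/- libraries. After subtraction of 10% of each sum by the ambient profile the log2 fold change was -1.43 (adjusted p 0.153) in macrophages and monocytes and -1.73 (adjusted p 0.0884) in endothelial cells.

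Cxcl5 in mesenchymal cells was at 552, 1094 and 261 CPM in the wild-type libraries and 183, 191 and 191 CPM in the Nlrp3-/- libraries. The Nlrp3-/- libraries lay close together, and the wild-type libraries were all higher and spread widely. The log2 fold change was -1.81 (SE 0.47, adjusted p 0.338) by edgeR, with a DESeq2 adjusted p of 0.00372, and 6.12% of genes were lower without overlap. It was -1.16 without wild-type replicate 2 and -2.20 (adjusted p 0.0440) without wild-type replicate 3. After thinning, 23.5, 38.3 and 10.3% of wild-type and 7.18, 5.46 and 8.01% of Nlrp3-/- mesenchymal cells had a Cxcl5 UMI (56.9, 65.0 and 26.0% and 16.3, 13.5 and 23.6% unthinned), against 0.140, 1.75 and 0% and 0, 0.12 and 0.156% of B cells. Cxcl3 in mesenchymal cells was at 11.48, 39.0 and 54.9 CPM in the wild-type libraries and 16.3, 12.1 and 13.1 CPM in the Nlrp3-/- libraries and overlapped, with a log2 fold change of -1.41 (SE 0.51, adjusted p 0.379), and that of Cxcl2, whose wild-type level there was close to that of B cells, was -1.25 (SE 0.49, adjusted p 0.391). The sign of Cxcl2 turned at Leiden resolution 2.0 (0.11) and with the set-aside clusters kept (1.33). Fewer cells of an inflammatory subset and less Cxcl5 per cell cannot be told apart at the level of all mesenchymal cells.

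The neutrophil and macrophage ligands followed single libraries. Cxcl2 in neutrophils was at 4379, 16528 and 7436 CPM in the wild-type libraries and 16939.8, 839 and 1734 CPM in the Nlrp3-/- libraries, where Nlrp3-/- replicate 1 matched the highest wild-type library and replicates 2 and 3 lay below the lowest. Its log2 fold change was -0.70 (SE 1.07, adjusted p 0.783). In macrophages and monocytes Cxcl2 was at 2857, 3132 and 4231 CPM in the wild-type libraries and 4646, 1735 and 2079 CPM in the Nlrp3-/- libraries, where the highest and the lowest value were both from Nlrp3-/- libraries, with a log2 fold change of -0.41 (SE 0.37, adjusted p 0.527). Cxcl3 in macrophages and monocytes was at 74.6, 164 and 370.0 CPM in the wild-type libraries and 1017, 71.8 and 136 CPM in the Nlrp3-/- libraries, with a log2 fold change of 0.93 (SE 0.93, adjusted p 0.575). The sign of Cxcl3 turned without Nlrp3-/- replicate 1, when the log2 fold change was -1.11 in macrophages and monocytes and -5.73 in neutrophils. The neutrophil value then passed (edgeR adjusted p 0.0497), in a fit that called 1.11% of genes. Csf3 in macrophages and monocytes was at 10.3, 16.0 and 54.1 CPM in the wild-type libraries and 49.5, 3.21 and 5.17 CPM in the Nlrp3-/- libraries and turned on single libraries, with a log2 fold change of -0.56 over all 6, -2.78 without Nlrp3-/- replicate 1 and 0.35 without wild-type replicate 3. In neutrophils 0 of the 7 members at 10 CPM or more were separated without overlap in either direction, against 24.0% of genes.

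Cxcl12 in mesenchymal cells was at 544, 909 and 295 CPM in the wild-type libraries and 397, 141 and 459 CPM in the Nlrp3-/- libraries, with overlap (log2 fold change -0.88, SE 0.52, adjusted p 0.468). In endothelial cells it was at 561, 473 and 464 CPM in the wild-type libraries and 712, 761 and 569 CPM in the Nlrp3-/- libraries, the 1 member higher without overlap in that type, where 19.7% of genes were higher without overlap. The log2 fold change was 0.30 (SE 0.16, adjusted p 0.314). The sum of the 9 mesenchymal markers was likewise higher in each Nlrp3-/- library of these cells, and its part in the difference was not tested. Cxcr4 in macrophages and monocytes was at 158, 134 and 334 CPM in the wild-type libraries and 278, 259.6 and 287 CPM in the Nlrp3-/- libraries (log2 fold change 0.25, SE 0.28, adjusted p 0.611). Apart from wild-type replicate 3 the Nlrp3-/- values were higher. Cxcr2 in macrophages and monocytes was at 3.94, 2.66 and 2.90 CPM in the wild-type libraries and 1.85, 1.76 and 1.57 CPM in the Nlrp3-/- libraries, without overlap, with a log2 fold change of -1.06 (SE 0.24, adjusted p 0.113), and DESeq2 called it. These levels lie under the 10 CPM from which separated genes were counted. The 10 neutrophil markers summed to 2688, 1489.8 and 1994 CPM in the wild-type and 941, 1174 and 1236 CPM in the Nlrp3-/- macrophages and monocytes, also without overlap, and their part in the difference was not tested.

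The subsets gave 1 call among 65 member tests in 10 subsets, while 15 had an unadjusted p under 0.05 and DESeq2 called 6. Over all genes the share at an unadjusted p under 0.05 lay between 474 of 6245 (mature neutrophils) and 1804 of 9379 (osteoclasts). No DESeq2 share over all genes is given for subsets. The 1 edgeR call was Cxcl1 in C1q macrophages. There Cxcl1 was at 299, 241 and 332 CPM in the wild-type libraries and 96.0, 88.3 and 59.8 CPM in the Nlrp3-/- libraries, with no overlap between the genotypes. The share of all genes separated in this subset was not counted. Cxcl1 fell by 1.96 on the log2 scale (SE 0.19, edgeR adjusted p 0.000267), or 3.88-fold, when 0.437% of genes were called in these cells. The call held without each library in turn, at log2 fold changes of -2.13 to -1.76, in fits that left at least 2 libraries per group. With finer clusters (Leiden resolution 2.0) it held too, at -1.37 (adjusted p 0.00481). The values of wild-type replicate 2 and of Nlrp3-/- replicates 1 and 3 lay below the free RNA of their libraries, and after ambient subtraction the log2 fold change was -2.02 (adjusted p 0.000380). The subset comprised 216, 362 and 236 wild-type and 539, 267 and 908 Nlrp3-/- cells, and at 1000 UMIs per cell 17.6, 15.1 and 14.96% and 4.66, 6.39 and 2.88% of them had a Cxcl1 UMI (39.4, 30.1 and 33.1% and 14.1, 13.5 and 11.3% unthinned). In B cells, read as background, the thinned shares were 0.699, 1.90 and 0.453% and 0.877, 0.12 and 0.312%.

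Cxcl2 in the same C1q macrophages was at 2612, 2165 and 2274 CPM in the wild-type libraries and 1544, 1029 and 1212 CPM in the Nlrp3-/- libraries, also without overlap, and narrowly missed the threshold (-1.01, SE 0.20, adjusted p 0.0505), while DESeq2 called it. edgeR called it with RLE size factors (adjusted p 0.0453), the replicate block (0.00740), 1000 UMIs per cell (0.0472), 5% mitochondrial UMIs (0.0414) and ambient subtraction (0.0194). Without wild-type replicate 3 (0.00900) or Nlrp3-/- replicate 1 (0.0484) edgeR called it too. The fit without wild-type replicate 3 called 6.77% of all genes, and for the other refits no share is given. The share of all genes separated without overlap in C1q macrophages was not counted. Cxcr4 there was at 188, 159 and 672 CPM in the wild-type libraries and 492, 466 and 443 CPM in the Nlrp3-/- libraries, and without wild-type replicate 3 it was called higher in Nlrp3-/- (log2 fold change 1.27), in a fit that called 6.77% of all genes. A further macrophage cluster with C1q genes that met no subset's name had Cxcl1 at 312, 197 and 433 CPM in the wild-type libraries and 132, 94.8 and 102 CPM in the Nlrp3-/- libraries, in the same order, given as a description.

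In the remaining macrophage subsets Cxcl1 also had negative log2 fold changes and failed the adjusted threshold by edgeR. In Arg1 Spp1 macrophages (0.309% of genes called) it was at 545, 854 and 1324 CPM in the wild-type libraries and 548, 172 and 251 CPM in the Nlrp3-/- libraries, where replicate 1 of the Nlrp3-/- group overlapped wild type, with a log2 fold change of -1.57 (SE 0.44, adjusted p 0.243). This class joins 4 clusters that the libraries filled unequally, so its values compare different mixtures. The cluster with the highest Cxcl1 had 16, 155 and 108 wild-type and 409, 4 and 28 Nlrp3-/- cells, and Cxcl1 within it was at 2618, 2938 and 4808 CPM in the wild-type libraries and 1148, 1589.9 and 1504 CPM in the Nlrp3-/- libraries, given as a description. In osteoclasts (0.512%) it was at 264, 100.1 and 55.7 CPM in the wild-type libraries and 41.5, 29.5 and 22.5 CPM in the Nlrp3-/- libraries, with -2.40 (SE 0.48, adjusted p 0.0534), and DESeq2 called it (-2.37, SE 0.74, adjusted p 0.0341). edgeR called it without wild-type replicate 2 or 3 and with doublets kept (adjusted p 0.0414, 0.000712 and 0.0369). In MHC-II macrophages (1.0%) the log2 fold change was -1.38 (adjusted p 0.177), in dividing macrophages and monocytes (0.649%) -1.33 (adjusted p 0.106) and in inflammatory monocytes (0.438%) -0.55 (adjusted p 0.591). In separate refits edgeR called Cxcl1 in the dividing cells with the replicate block, without wild-type replicate 3 and without Nlrp3-/- replicate 1 (adjusted p 0.0286, 0.0372 and 0.00267). The last refit also called it in MHC-II macrophages (-2.50, adjusted p 0.0298). No share over all genes is given for these refits or for those in osteoclasts. In dividing mesenchymal cells (0.149%) Cxcl5 differed by -0.42 (adjusted p 0.715) and Cxcl12 by -0.88 (adjusted p 0.390).

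Neutrophil subsets gave 0 edgeR calls among 23 member tests, with 5 at an unadjusted p under 0.05 and 3 DESeq2 calls. The shares of genes called were 1.32% in dividing precursors, 0.354% in granule-rich immature cells and 0.144% in mature cells. An unadjusted p under 0.05 was found for 1377 of 8655, 1021 of 7056 and 474 of 6245 genes. In granule-rich immature cells Cxcl1 was at 37.7, 159 and 12.3 CPM in the wild-type libraries and 4.71, 0.716 and 4.11 CPM in the Nlrp3-/- libraries (log2 fold change -4.93, SE 0.99, adjusted p 0.0652) and Csf3 at 15.04, 32.4 and 16.9 CPM in the wild-type libraries and 8.49, 1.07 and 3.198 CPM in the Nlrp3-/- libraries (-2.90, SE 0.56, adjusted p 0.0641), neither overlapping. In all neutrophils 24.0% of genes were separated without overlap, and the share in this granule-rich subset was not counted. All 6 Cxcl1 values lay below the free RNA of the same libraries. Csf3r there was at 114, 208 and 90.3 CPM in the wild-type libraries and 78.3, 92.8 and 72.6 CPM in the Nlrp3-/- libraries (-0.996, SE 0.29, adjusted p 0.181). In dividing precursors Cxcl1 was at 12.04, 41.2 and 3.88 CPM in the wild-type libraries and 4.85, 0.740 and 3.08 CPM in the Nlrp3-/- libraries, with overlap and below the free RNA of the same libraries (-3.36, SE 0.80, adjusted p 0.0611), and edgeR called it at 1000 UMIs per cell, with doublets kept and without wild-type replicate 3 (adjusted p 0.0387, 0.00743 and 0.00184). DESeq2 called all 3 of the genes named in granule-rich immature cells, and so did edgeR without the filter on low counts. edgeR also called Csf3 there at Leiden resolution 2.0, at 1000 UMIs per cell and without Nlrp3-/- replicate 1 (adjusted p 0.0252, 0.0481 and 0.0435). With doublets kept it called Cxcl1, Csf3 and Csf3r (adjusted p 0.0257, 0.0129 and 0.0324), as it did without wild-type replicate 3 (0.00257, 0.0154 and 0.0128). Without wild-type replicate 2 it called Cxcl1 (0.0231), and without Nlrp3-/- replicate 1 also Cxcl3 (log2 fold change -6.47, adjusted p 0.0162). For these refits of neutrophil subsets the share of all genes called is not given. One of the clusters in the granule-rich subset had Cxcl3, Il1a and Cxcl1 among its leading genes. It comprised 117, 278 and 21 wild-type and 34, 0 and 4 Nlrp3-/- cells. The subset thus joins clusters that the libraries filled unequally, so its values compare different mixtures of cells. In the other granule-rich cluster Csf3r was at 74.97, 71.7 and 78.7 CPM in the wild-type libraries. It was at 59.1, 92.8 and 69.4 CPM in the Nlrp3-/- libraries there, with overlap. The part of the cluster led by Cxcl3, Il1a and Cxcl1 in the differences of the subset was not tested. In mature cells Cxcl1 was at 292, 1132 and 830.4 CPM in the wild-type libraries and 378, 407 and 536 CPM in the Nlrp3-/- libraries (-0.88, SE 0.42, adjusted p 0.654) and Cxcl2 at 56738, 27947 and 33327 CPM in the Nlrp3-/- libraries (0.091, SE 0.50, adjusted p 0.999), inside the wild-type range apart from replicate 1.

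The 6 other cell types gave 1 call among 29 member tests, with 6 at an unadjusted p under 0.05 and 2 DESeq2 calls (Cxcl2 in mast cells and basophils and Cxcl1 in pericytes and smooth muscle cells). Over all genes the share at an unadjusted p under 0.05 lay between 797 of 9750 (B cells) and 2067 of 11184 (granulocyte-monocyte progenitors). The call was Cxcl5 in pericytes and smooth muscle cells, at 280.0, 214 and 244 CPM in the wild-type libraries and 57.4, 57.7 and 31.2 CPM in the Nlrp3-/- libraries. All 3 Nlrp3-/- libraries lay far below the wild-type ones, and Cxcl5 fell by 2.44 on the log2 scale (SE 0.25, edgeR adjusted p 0.00492), or 5.41-fold, when 0.175% of genes were called. DESeq2 gave no adjusted p for it. Leiden resolution 2.0 gave -1.12 (adjusted p 0.568), which no longer passed. They made up 0.963, 1.14 and 0.842% of the wild-type and 6.77, 1.26 and 1.32% of the Nlrp3-/- cells, with the highest share in Nlrp3-/- replicate 1. Cxcl1 in these cells was at 412, 307 and 626 CPM in the wild-type libraries and 201, 224 and 246 CPM in the Nlrp3-/- libraries (-1.11, SE 0.23, adjusted p 0.143), without overlap. The share of all genes separated in this cell type was not counted. In mast cells and basophils (0.326% called) Cxcl2 was at 1067, 1991 and 931 CPM in the wild-type libraries and 588, 611 and 802 CPM in the Nlrp3-/- libraries (-1.16, SE 0.27, adjusted p 0.122). In T and NK cells (0.508%) Cxcl1 was at 34.6, 34.9 and 13.6 CPM in the wild-type libraries and 12.7, 3.38 and 3.34 CPM in the Nlrp3-/- libraries (-2.28, SE 0.51, adjusted p 0.0838), below the free RNA of the same libraries. edgeR called it with the replicate block, without wild-type replicate 3, without Nlrp3-/- replicate 1 and with doublets kept (adjusted p 0.00419, 0.0152, 0.0210 and 0.0303). Without wild-type replicate 3 edgeR also called Cxcl2 in mast cells and basophils (adjusted p 0.0109). No share over all genes is given for these refits. B cells (0.256%), granulocyte-monocyte progenitors (0.519%) and plasmacytoid dendritic cells (0.518%) gave 0 edgeR calls and 0 DESeq2 calls among their 5, 9 and 2 tests, with 1 at an unadjusted p under 0.05, Csf3 in the progenitors (-0.95).

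Whether the genotype effect differed between cell types was tested with an interaction term. Relative to macrophages and monocytes, 0 of 9 members differed in neutrophils and 0 of 9 in mesenchymal cells by edgeR, against 0.0128% and 0.00639% of genes. DESeq2 was not run for this term, and 1 member, Cxcl12 in mesenchymal cells, had an unadjusted p under 0.05 (-0.81, SE 0.27, adjusted p 0.467), where 1112 of 15659 genes did. Without Nlrp3-/- replicate 1 the term for Cxcl3 in neutrophils passed (-4.21, SE 0.51, adjusted p 0.0154), when 0.224% of genes did. No difference of the Cxcl1 change between these cell types was thus shown.

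Over all cells no receptor passed by edgeR. Cxcr4 had 116 ± 55.2 CPM in wild type and 141 ± 14.0 CPM in Nlrp3-/- (log2 fold change 0.14, SE 0.30, adjusted p 0.844). Cxcr2 was at 47.6, 40.4 and 33.3 CPM in the wild-type libraries and 24.1, 25.9 and 17.6 CPM in the Nlrp3-/- libraries and Csf3r at 75.6, 66.2 and 49.8 CPM in the wild-type libraries and 39.0, 38.6 and 25.7 CPM in the Nlrp3-/- libraries, and neither overlapped. The log2 fold changes were -1.01 (SE 0.21, adjusted p 0.319) and -1.06 (SE 0.24, adjusted p 0.344), and DESeq2 called both. Along with Cxcl1 (165, 310.3 and 226 against 158, 57.8 and 118 CPM) and Cxcl5 (141, 442 and 99.3 against 69.3, 70.3 and 84.8 CPM) they were the 4 of 9 members lower without overlap, where 3.72% of genes were. Each of the 4 had an exact two-sided permutation p of 0.1, the smallest that 3 against 3 libraries allow, and the other members had 0.5 to 0.9. The shares of the cell types, taken here as shares of UMIs and not of cells, and the levels within them were then set apart by calculation, with no test. Wild-type levels per type gave 42.1 CPM of Cxcr2 at the mean wild-type shares of the types and 30.4 ± 6.23 CPM at the Nlrp3-/- shares. Nlrp3-/- levels at wild-type shares gave 31.6 ± 4.57 CPM, and the observed Nlrp3-/- mean was 22.6 ± 4.36 CPM. For Csf3r the values were 66.5, 51.0 ± 7.95, 44.1 ± 9.17 and 34.4 ± 7.53 CPM. For Cxcl1 the calculation gave 241 and 244 ± 31.6 CPM at the 2 sets of shares of the broad types, and Nlrp3-/- levels at wild-type shares gave 100.8 ± 39.0 CPM.

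The stages of the neutrophils varied between libraries, and their part in the receptor levels was not tested. The part of marrow cells in these stages was not tested either. Mature cells made up 49.6, 67.3 and 34.7% of the wild-type and 48.7, 5.45 and 12.6% of the Nlrp3-/- neutrophils, and dividing precursors 9.23, 5.30 and 10.4% in wild type and 9.74, 20.5 and 18.8% in Nlrp3-/-. Granule-rich immature cells made up 13.9, 10.3 and 8.996% in wild type and 15.2, 23.3 and 22.0% in Nlrp3-/-, without overlap, and the rest were unnamed. The share of cells named mature was lower in Nlrp3-/- replicates 2 and 3 than in the other 4 libraries. An unnamed cluster comprised 61, 74 and 554 wild-type and 50, 450 and 342 Nlrp3-/- cells. Its Cxcr2 was at 629, 579 and 596 CPM in wild type and 814, 826 and 785 CPM in Nlrp3-/-. One cluster named mature had 589, 553 and 681 CPM and 721, 824 and 869 CPM. The named share thus leaves out cells with Cxcr2 at the level of a mature cluster. Cxcr2 in all neutrophils was at 231, 341 and 218 CPM in the wild-type libraries and 231, 181 and 179 CPM in the Nlrp3-/- libraries (-0.66, SE 0.25, adjusted p 0.326), and Csf3r at 309.7, 473 and 261 CPM in the wild-type libraries and 280.4, 176 and 162 CPM in the Nlrp3-/- libraries (-0.99, SE 0.34, adjusted p 0.291). In mature neutrophils alone Cxcr2 was at 692, 707 and 418 CPM in the wild-type libraries and 419.9, 953 and 810.3 CPM in the Nlrp3-/- libraries (0.10, SE 0.31, adjusted p 0.982, range of 2 SE -0.52 to 0.71), and the lower libraries were wild-type replicate 3 and Nlrp3-/- replicate 1. The mature class joins 4 clusters that the libraries filled unequally. One of them, with Cxcr2 at 144, 138 and 106 CPM in the wild-type libraries and 206, 300.4 and 94.4 CPM in the Nlrp3-/- libraries, had 22, 197 and 507 wild-type and 610, 10 and 17 Nlrp3-/- cells, and its part in the mature values was not tested. Csf3r in mature cells was at 1144, 1052 and 837 CPM in the wild-type libraries and 748, 1417 and 1166 CPM in the Nlrp3-/- libraries (-0.011, SE 0.26, adjusted p 0.999) and Cxcr4 at 413, 305 and 461 CPM in the wild-type libraries and 408, 891 and 872 CPM in the Nlrp3-/- libraries (0.72, SE 0.29, adjusted p 0.617).

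**Figure D5:**
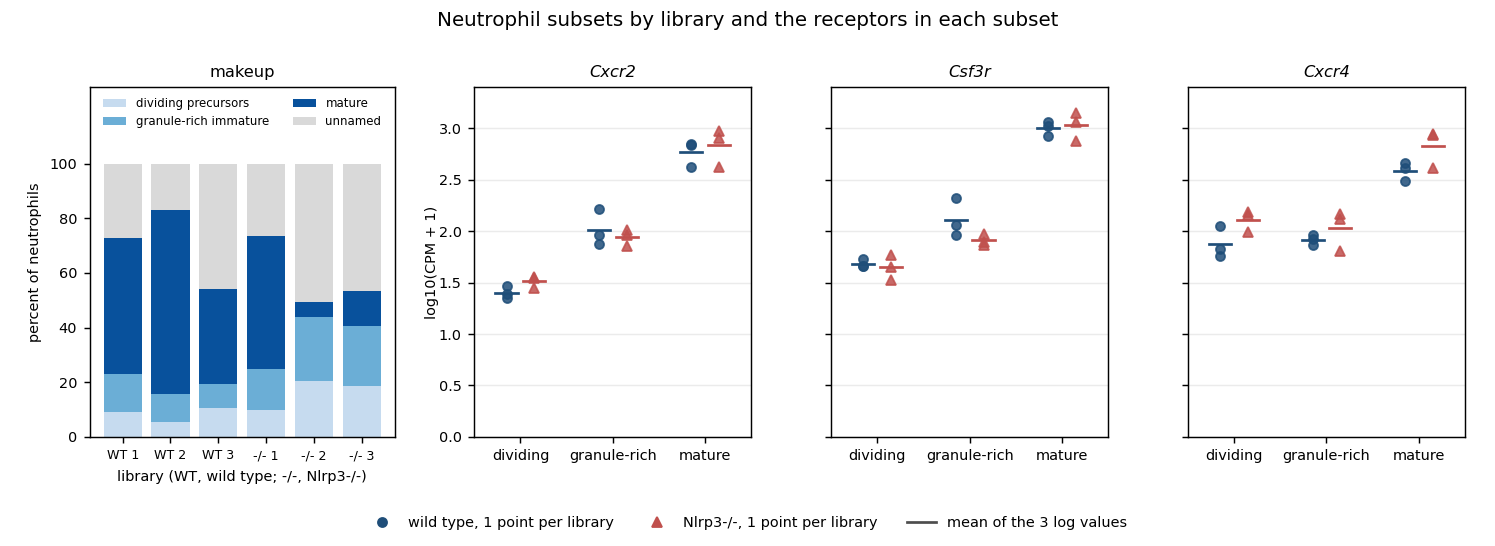
Left, percent of neutrophils in each named subset per library; right, Cxcr2, Csf3r and Cxcr4 as log10(CPM + 1) in the subsets, with circles for wild-type and triangles for Nlrp3-/- libraries and a line at the mean of the 3 log values. Cxcr2 climbs from dividing to mature cells in both genotypes, and cells named mature are 5.45 and 12.6% of the neutrophils in Nlrp3-/- replicates 2 and 3.

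When the 12 neutrophil clusters were weighted by their mean wild-type shares of UMIs, a calculation added after the data were seen, the order of Cxcr2 turned. Wild-type libraries then had 266, 249 and 273 CPM and Nlrp3-/- libraries 307, 349.5 and 323 CPM, so that Nlrp3-/- was higher in 3 of 3 libraries (exact two-sided permutation p 0.1, the smallest possible). Wild-type levels at the Nlrp3-/- makeup gave 176 ± 36.2 CPM, below the 262 CPM at the wild-type makeup. Cxcr4 gave 182, 122 and 233 CPM in wild type and 249.8, 309 and 242 CPM in Nlrp3-/- (p 0.1 by the same exact permutation test), and Cxcl1 125, 305 and 123 and 57.6, 111 and 106 CPM (p 0.1 by that exact test). Csf3r gave 386, 326 and 396 and 339.6, 441 and 365 CPM and overlapped. At this makeup 21.0% of genes were higher and 5.14% lower in Nlrp3-/- without overlap, so the separation of a single gene is common. Nlrp3-/- replicate 2 had 0 cells in 1 cluster, and its weights were rescaled over the others. In the 8 clusters with at least 20 cells in each library, Cxcr2 was higher in Nlrp3-/- without overlap in 5 and overlapped in 3, Cxcr4 overlapped in 8, and Csf3r overlapped in 7 and was lower in 1. The 5 clusters share libraries and are not independent, and the share of all genes separated in single clusters was not counted. In the largest mature cluster Cxcr2 was at 830.2, 791 and 841 CPM in the wild-type libraries and 854, 1074 and 877 CPM in the Nlrp3-/- libraries. In a granule-rich cluster it was at 59.3, 49.99 and 64.2 CPM in the wild-type libraries and 92.3, 91.0 and 69.0 CPM in the Nlrp3-/- libraries.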

How the data were processed

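Tissue was dissociated and sequenced with the Chromium Single Cell 3' kit, which counts 3' tags, so levels were compared within a gene and not between genes. The deposited files are unfiltered matrices of raw UMI counts per gene and barcode, which the authors made with Cell Ranger against mm10. The submitters' processing notes give version 2.1.1, whereas the matrix headers name Cell Ranger 4. Cell calling, clustering, naming, summing and testing were done anew here from these counts.

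Barcodes with at least 500 UMIs, 200 genes and at most 10% mitochondrial UMIs were kept when their false discovery rate against the ambient profile (barcodes of at most 100 UMIs) was 0.01 or less. Scrublet doublets, at an expected 0.8% per 1000 cells, were removed. In scanpy 1.11.5 (Python 3.11.15) 2000 variable genes, 30 components and 15 neighbours gave Leiden clusters at resolution 1.0. The 9 genes, Nlrp3 and sex-linked genes such as Xist (16 genes in all) were left out of the clustering, and other chemokine and receptor genes were not. A cluster was set aside when 1 library gave over 75% of it and that library's cells in it had a lower median UMI count than all its cells in the same clustering, 1143 cells of mixed and 251 of unnamed clusters entered no cell type, and the limits for names were chosen with the clusters in view.

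For each library and cell type the UMIs were added up, for groups of 20 or more cells in every library, and tested with edgeR 4.0.16 (R 4.3.3) by quasi-likelihood after filterByExpr and TMM scaling, with Benjamini-Hochberg adjustment over all genes at 0.05. Depth was 97042713 to 134901999 UMIs per library. The library was the replicate. The study counts its samples as independent replicates, and the labels tie no library to single mice, so p-values measure the spread between these libraries. A standard error is the absolute log2 fold change over the square root of F. DESeq2 1.42.0 was an alternative. Permutation tests were exact over 20 assignments and two-sided, with a smallest p of 0.1. The edgeR procedure was tested on simulated data. The members and gene lists were chosen with earlier results of these data known. Named genes were the members, the pathway list members of highest level, and the 3 genes most like each member. Non-overlap was counted over genes of at least 10 CPM in either group.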

Additional observations from a re-analysis of the deposited data

Results flagged for a closer look

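The cells set aside from Nlrp3-/- replicate 1 held Cxcl3 at 204 CPM. These cells enter no comparison, and the value lies above the highest wild-type value over all cells (151 CPM) and above the cells set aside in the wild-type libraries (7.36, 113 and 11.7 CPM). It lies below the cells of the same library that were kept (427 CPM) and below its free RNA (418 CPM). It is given as a value without a test.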

How the results depend on the processing

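Of 975 refits of 63 member results, 907 kept direction and side of the threshold, 29 newly passed it, 6 no longer passed and 33 changed sign, each sign change being of a difference that had not passed. One of these, Cxcl3 in neutrophils without Nlrp3-/- replicate 1, passed in the new direction. edgeR called 26, 42, 67, 16 and 45 genes between genotypes in all cells, neutrophils, macrophages and monocytes, mesenchymal and endothelial cells, and DESeq2 348, 229, 671, 253 and 342. Without a filter on low counts there were 189, 408 and 851 in neutrophils, macrophages and monocytes and endothelial cells, and with set-aside clusters kept 25 in endothelial cells. Leaving out each library gave 16 to 29, 13 to 123, 27 to 2888, 4 to 551 and 16 to 2242 genes. The highest counts in macrophages and monocytes, mesenchymal and endothelial cells came without wild-type replicate 3, and the highest in neutrophils without Nlrp3-/- replicate 1. Replicate numbers do not pair the libraries (correlations of deviations -0.584 to 0.0450, 0 libraries closest to their own number), and the fit with the replicate block called 12, 12, 31, 4 and 78 genes, 1 member in the main types and 5 in subsets. Members called in the main types, 0 as reported, were 4 without the filter, 7 by DESeq2 and 0 to 8 with a library left out, 8 being without wild-type replicate 3. In subsets the count of 1 became 20 without the filter, 2 with RLE factors, 6 by DESeq2, 4 at 1000 UMIs per cell, 2 at 5% mitochondrial UMIs, 7 with doublets, 2 at resolution 2.0, 2 after ambient subtraction and 1 to 16 with a library left out. The interaction counts, 2 for neutrophils and 1 for mesenchymal cells, were 22 and 10 without the filter, 16 and 0 after ambient subtraction and 0 to 35 and 0 to 2 with a library left out, and for neutrophils 1 at resolution 2.0 and 1 with set-aside clusters. Cxcl3 turned under the block to -0.71 in all cells, -4.53 in neutrophils and -0.15 in macrophages and monocytes. With a library left out, log2 fold changes that crossed 0 ranged from -1.63 to 1.24 (Cxcl3), -0.89 to 0.033 (Cxcl12) and -0.10 to 0.53 (Cxcr4) in all cells, -3.16 to 0.018 (Cxcl2), -5.73 to 0.92 (Cxcl3) and -0.50 to 0.085 (Cxcr4) in neutrophils, -1.11 to 1.61 (Cxcl3) and -2.78 to 0.35 (Csf3) in macrophages and monocytes, -2.07 to 0.19 (Cxcl2) in endothelial cells and -0.49 to 0.34 (Cxcl2), -0.14 to 0.28 (Cxcr2) and -0.16 to 0.092 (Csf3r) in mature neutrophils. In the wild-type comparisons they ranged from -1.28 to 0.45 for Cxcl1 in neutrophils over macrophages and monocytes and -0.10 to 0.50 for Cxcl12 in mesenchymal over endothelial cells. Cxcl2 turned to 0.11 (resolution 2.0) and 1.33 (set-aside clusters kept) in mesenchymal cells and 0.79 (set-aside clusters kept) in endothelial cells. In mature neutrophils Cxcl2 turned to -0.0095 without the filter and -0.005 with the block, Cxcr2 to -0.063 without the filter and Csf3r to 0.0022 with doublets and 0.025 at resolution 2.0. The Csf3r interaction for mesenchymal cells turned to 0.30 after ambient subtraction and 0.81 with set-aside clusters. The cause of these moves was not tested. Source shares, the pericyte refits and both makeup calculations were added after the data were seen. Main source shares moved by more than 1 SD in 10 refits, with Cxcl5 in mesenchymal cells at 83.8 to 97.9% and Cxcr2 in neutrophils at 87.1 to 99.8%. Depth limits Csf3, which reached at most 1621 UMIs in any cell type over the wild-type libraries.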
